A study of Mus musculus with 6 samples.

Results

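Open chromatin far from the ends of protein-coding genes was followed through exit from naive pluripotency in mouse embryonic stem cells. Of the 131410 accessible regions listed at any time, 17575 (13.4%, exact 95% interval 13.2 to 13.6) had their midpoint more than 100 kb from the nearest end of a protein-coding gene. These distant regions were chosen by position alone, whichever list held them, and 113835 regions lay at 100 kb or less. The distant regions comprised 11194 intergenic ones (63.7%), which lay between genes, and 6381 (36.3%) whose midpoint lay inside a long protein-coding gene.

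E14 is a blastocyst-derived mouse embryonic stem cell line, and all cells were plated in 2iL, a medium with LIF, 3 uM of the GSK3 inhibitor CHIR99021 and 1 uM of the MEK inhibitor PD0325901. The 3 groups were cells kept in 2iL, cells 48 h after 2iL was replaced by N2B27 without the inhibitors and LIF (48h), and cells 96 h after that change (96h). ATAC-seq, in which a transposase cuts accessible DNA, was done on 2 samples per group, A and B, from 100000 cells each. The labels give both samples of a group the same peak list, so each group had 1 list, no spread between samples could be measured, and no test between times was possible. No p-value is therefore given, and the intervals given reflect counting error alone, with adjacent regions taken as independent. The lists held 91228 intervals in 2iL, 88810 at 48h and 78055 at 96h. A lower count at 96h cannot be told apart from the shorter list. Of 11 general pluripotency genes 10, 11 and 9 had a region within 1 kb of an end in the 2iL, 48h and 96h lists, but so did 11, 12 and 11 of 13 trophoblast genes, so open gene ends did not tell the labelled cell type from others.

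Gene deserts are long stretches without protein-coding genes. Enhancers, the short elements that transcription factors bind to raise the activity of a gene, can act over such distances through looping of the chromatin. Genes for developmental regulators often lie beside deserts that carry many enhancers, and long introns can hold them in the same way. A distant open region may also be a promoter of a non-coding RNA, an alternative promoter inside a long gene, or a binding site of an architectural protein.

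Promoter sequences from RefSeq (GRCm38.p6, the mm10 assembly) show the kinds of annotated element that some of these regions hold. Each window below covers 250 bases before to 50 bases after the start of a long non-coding RNA, written 5′ to 3′ on the strand of that RNA. Gm20756, Gm32703 and C030018K13Rik had the highest fold of their course among the distant regions compared for this choice. The regions compared each held a whole promoter window and were not drawn from the entire genome. Gm35255 was taken for its place beside Sox2. Capitals mark every match, on either strand, to the 18 motifs listed with the promoter counts below. Gm20756 starts at chr6:25931176-25931475 on the plus strand, between Pot1a and Grm8, in a region listed in 2iL and at 48h and not at 96h. Gm32703 starts at chr13:109440962-109441261 on the minus strand, inside Pde4d, in a region listed throughout. Gm35255 starts at chr3:34949977-34950276 on the plus strand, in the desert between Sox2 and Atp11b, in a region listed at 48h and 96h and not in 2iL. C030018K13Rik starts at chr5:64476758-64477057 on the plus strand, between Tbc1d1 and Gm38457, in a region listed at 96h alone.
Gm20756: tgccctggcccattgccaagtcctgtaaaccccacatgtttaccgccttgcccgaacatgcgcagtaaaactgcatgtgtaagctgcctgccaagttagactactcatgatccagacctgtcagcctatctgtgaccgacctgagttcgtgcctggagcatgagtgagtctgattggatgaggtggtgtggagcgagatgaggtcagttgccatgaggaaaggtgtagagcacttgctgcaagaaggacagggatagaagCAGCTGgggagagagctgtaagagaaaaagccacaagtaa
Gm32703: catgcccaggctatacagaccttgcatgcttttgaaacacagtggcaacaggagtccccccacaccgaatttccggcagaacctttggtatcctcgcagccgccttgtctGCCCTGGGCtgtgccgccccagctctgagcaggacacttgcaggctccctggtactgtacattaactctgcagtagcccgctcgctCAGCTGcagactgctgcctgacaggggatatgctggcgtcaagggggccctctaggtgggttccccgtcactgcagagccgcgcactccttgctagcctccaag
Gm35255: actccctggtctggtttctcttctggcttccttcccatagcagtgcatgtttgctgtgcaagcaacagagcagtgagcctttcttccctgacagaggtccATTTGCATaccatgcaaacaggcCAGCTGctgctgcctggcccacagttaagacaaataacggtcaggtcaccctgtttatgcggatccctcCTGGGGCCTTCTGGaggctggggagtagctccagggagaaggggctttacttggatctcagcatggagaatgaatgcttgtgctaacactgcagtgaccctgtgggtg
C030018K13Rik: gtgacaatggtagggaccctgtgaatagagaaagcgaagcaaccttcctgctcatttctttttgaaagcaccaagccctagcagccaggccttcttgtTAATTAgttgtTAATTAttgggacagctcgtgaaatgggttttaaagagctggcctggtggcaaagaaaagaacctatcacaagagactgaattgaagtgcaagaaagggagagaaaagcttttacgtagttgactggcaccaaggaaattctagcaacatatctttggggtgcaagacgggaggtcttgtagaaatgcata

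Mature microRNAs whose hairpin overlapped a distant region are shown with the seed, bases 2 to 8, in capitals. The regions at all 3 were absent from the 2iL list. The region at Mir100 starts at position 41531488 of chromosome 9, past the printed miR-100-5p, which ends at 41531458.
miR-137-3p: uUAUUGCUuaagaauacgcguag
miR-344-3p: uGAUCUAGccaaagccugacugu
miR-100-5p: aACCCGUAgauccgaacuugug

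Distant regions were thinly spread. Sequence over 100 kb from a protein-coding gene end made up 36.5% of the 2656 Mb between the outermost genes of the chromosomes, against 13.4% of the regions. Intergenic distant territory held 14.7 regions per Mb, inside-gene distant territory held 30.2 per Mb, and the remainder of the genome held 67.4 per Mb. The median distance to a gene end was 185 kb (quartiles 131 and 303 kb), 209 kb for intergenic regions and 157 kb for those inside a gene. At 100 to 200 kb lay 54.9% of the distant regions, while 1824 lay over 500 kb and 429 over 1000 kb away, 422 of these between genes. The farthest was 2188 kb from a gene end, in the desert between Celf4 and Pik3c3 on chromosome 18, and was in the 2iL, 48h and 96h lists with folds of 12.2, 18.1 and 22.5. The fold is the authors' enrichment over background at the strongest summit of the region. It ranks regions within a list, so folds given in threes run 2iL, 48h and 96h and are set side by side as descriptions, not as measured changes. Of the 8 farthest regions 5 lay in that desert and 3 between Olfm4 and Pcdh17, and 2 of the 8 were listed throughout, the other being at 2153 kb with 9.91, 15.0 and 5.40. The remaining 6 were each in 1 list alone. Distant regions were 7.95% of the regions of gene-rich chromosome 19 and 20.1% of those of chromosome 13, and none of the 29 regions of chromosome Y was distant.

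The 2iL list held 10121 distant regions, the 48h list 9736 and the 96h list 9519. They were 11.2% (11.01 to 11.4), 11.1% (10.9 to 11.3) and 12.3% (12.1 to 12.6) of the regions of the 3 lists, so the share was highest in the shortest list. Intergenic distant regions numbered 6417, 6173 and 5901 in the 3 lists, and those inside genes 3704, 3563 and 3618.

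Few distant regions were listed at every time. All 3 lists held 3704 of 17575, or 21.1% (20.5 to 21.7), against 38.2% (37.9 to 38.5) of the regions at 100 kb or less and a background of 35.9% of all regions. A single list held 53.9% of distant regions and 39.9% of the others. The 2iL list alone held 4338 distant regions (24.7%; all regions 20.8%), the 48h list alone 2084 (11.9%; all regions 10.5%) and the 96h list alone 3056 (17.4%; all regions 10.5%). The 48h and 96h lists shared 2314 that were missing in 2iL (13.2%; all regions 10.4%). Another 1634 were listed in 2iL and at 48h but not at 96h (9.30%; all regions 10%). Listing in 2iL and at 96h with a gap at 48h was the rarest course, with 445 distant regions (2.53%; all regions 1.95%). The 96h-only course was thus 17.4% of distant regions against 9.43% of the others, while the 2iL-only course was 24.7% against 20.2%. A region absent from a list can lie just under the authors' threshold in it, and in bulk samples fewer cells with an open site and a less open site in each cell cannot be told apart.

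The share listed throughout was lower in each farther class of distance. It was 75.01% within 1 kb of a gene end, 36.3% at 1 to 10 kb, 29.6% at 10 to 50 kb, 25.5% at 50 to 100 kb, 22.5% at 100 to 200 kb, 20.1% at 200 to 500 kb, 17.1% at 500 to 1000 kb and 16.1% (12.7 to 19.9) beyond 1000 kb. The limit of 100 kb marked no step. Regions at 100 to 110 kb, just inside it, were listed throughout in 25.1% of 1632 cases, against 23.5% of 2017 regions at 90 to 100 kb. Inside genes 22.9% (21.9 to 24.0) of distant regions were listed throughout, and between genes 20.01% (19.3 to 20.8). By chromosome the share listed throughout ran between 18.8% on chromosome 14 and 24.3% on chromosome 4.

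**Figure D1:**
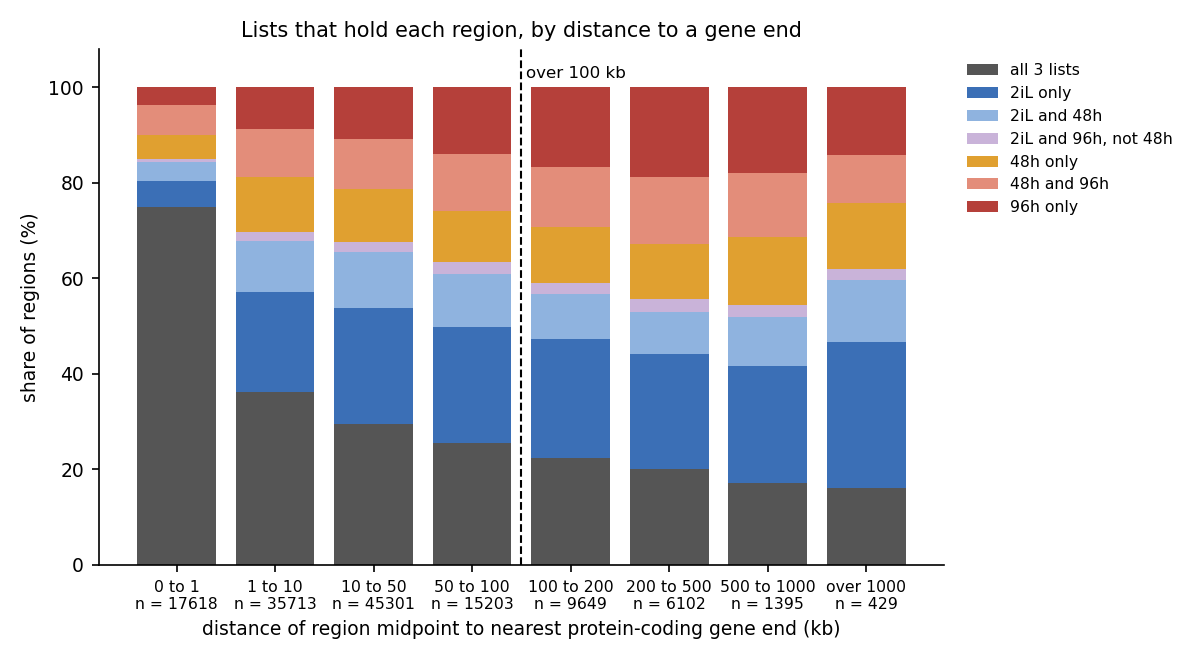
Stacked bars give the percent of regions with each of the 7 combinations of lists, by distance of the midpoint to the nearest protein-coding gene end in kb, with the number of regions under each bar. The grey segment, listed in all 3 lists, is 75.01% within 1 kb and 16.1% beyond 1000 kb, and the bars right of the dashed line hold the 17575 distant regions.

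In the 48 h after 2iL withdrawal, 4783 of the 10121 distant regions of the 2iL list left the list, or 47.3% (46.3 to 48.2), beside a background of 33.2% for all regions and 31.4% for regions at 100 kb or less. Regions that appeared numbered 4398 of the 9736 at 48h, or 45.2% (44.2 to 46.2), beside 31.2% of all regions and 29.5% of the nearer ones. In what follows, lost means listed at the earlier time and not at the later, as a share of the earlier list, and gained means the reverse, as a share of the later list. Among intergenic distant regions lost by 48h, those with the highest 2iL fold lay between Cobl and Pom121l12 (chr11:14159163-14160148; fold 26.7, missing at 48h and back at 9.67 at 96h), between Celf4 and Pik3c3 (25.8) and between Cntn6 and Cntn4 (25.4), which encode contactins, neuronal adhesion molecules. Among intergenic ones gained, those with the highest 48h fold lay between Fut8 and Gm6657 (chr12:77715903-77716528; 25.9 at 48h and 27.6 at 96h) and between Gucy1a2 and Aasdhppt (25.9 and 30.5), and both stayed in the list at 96h. Another, between Poteg and Unc5d, reached 24.97 at 48h and was listed at no other time.

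Inside genes, the distant regions lost by 48h with the highest fold lay in Dpyd (25.98), a pyrimidine-degrading enzyme, Ptprd (24.5), a receptor phosphatase, and Lama2 (23.8), a laminin chain. A pair in Rbfox1, a neuronal splicing regulator, and a region in Adgrl3, an adhesion receptor of synapses, led the gained ones, with 48h folds of 26.5, 24.7 and 26.003. At 96h the Rbfox1 region at chr16:6414800-6415356 stood at 6.67 and the one at chr16:6156747-6157375 at 29.4.

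Between 48h and 96h fewer distant regions changed lists than in the preceding interval. Lost were 3718 of 9736, or 38.2% (37.2 to 39.2; all regions 30.7%, nearer regions 29.7%), and gained were 3501 of 9519, or 36.8% (35.8 to 37.8; all regions 21.2%, nearer regions 19.0%). The gained share was thus 36.8% in distant and 19.0% in nearer regions, a wider gap than for the lost share. Intergenic distant regions lost 40.1% (38.9 to 41.3) and those inside genes 34.9% (33.3 to 36.5). Among intergenic regions listed at 96h and at neither earlier time, the strongest lay between Manea and Epha7 (chr4:27987867-27988494, 825 kb from Epha7, fold 27.2), between Adamts16 and Irx1 (24.7) and between Spaca1 and Akirin2 (23.9). Epha7 encodes an ephrin receptor and Irx1 an Iroquois homeobox factor, both patterning genes of the embryo. A further region gained after 48h, between Plod2 and Dipk2a, stood at 25.9 at 96h, with 13.5 in 2iL and no listing at 48h. Inside genes the leaders included regions in Npas3 (24.0), a neural transcription factor, and Ctnna3 (23.7), an alpha-catenin. Leaders among intergenic regions lost after 48h lay between Dact1 and Daam1, Wnt pathway genes (chr12:71460488-71461283; 22.8 in 2iL and 22.8 at 48h), and between Crbn and Lrrn1 (18.4 and 22.6). Neither was listed at 96h. The others of the 5 lay between Poteg and Unc5d, between Mdga2 and Rps29 (22.5 at 48h alone) and between Pcdh7 and G6pd2 (11.2 in 2iL, 22.3 at 48h), the last 1801 kb from a gene end. Inside genes, regions in Stk3, a Hippo kinase gene (19.3 in 2iL, 21.3 at 48h), Nbea (14.1 and 20.5) and Sgcd (20.5 at 48h alone) led the lost.

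Over the whole course, 5972 of the 10121 distant regions of 2iL were missing at 96h, or 59.0% (58.0 to 60.0), beside 44.9% of all regions and 43.1% of nearer ones. Of the 9519 listed at 96h, 5370 had been missing in 2iL, or 56.4% (55.4 to 57.4), beside 35.5% and 32.6%. The lost and gained shares of distant regions were thus 2.59 percentage points apart, and those of nearer regions 10.5 points apart. With lists cut to the same length the order turned, to 55.4% lost and 61.1% gained for distant regions, while nearer ones stood at 38.1% and 36.8%. Beyond 1000 kb the lost share was 70.3% (64.4 to 75.7) of 266 regions and the gained share 56.8% (49.3 to 64.1) of 183. Between genes 60.7% were lost and 57.3% gained, and inside genes 56.0% and 55.0%.

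The strongest distant region lost over the course lay between Zc3h12a and Grik3, a kainate receptor gene (chr4:125338896-125339450), with folds of 28.1 in 2iL and 13.2 at 48h and no listing at 96h. Likewise missing at 96h, the region over the Gm20756 promoter printed above had 26.4 and 7.67, and regions between Gm14296 and Gm14410, Pcsk1 and Ell2, and Fam3c and Ptprz1 had 26.5 and 15.5, 26.4 and 8.90, and 26.2 and 7.91. All 5 of these intergenic leaders were still listed at 48h. Their counterparts among the gained were likewise all listed by 48h. They lay between Gucy1a2 and Aasdhppt (25.9 at 48h and 30.5 at 96h), Cdh2 and Dsc3 (18.7 and 29.5), Kcnj2 and Gm11677 (6.31 and 29.2), Agtr1b and Tbl1xr1 (19.2 and 28.8), and Nmur2 and Gria1 (24.8 and 28.1). Cdh2 encodes N-cadherin, and its region lay 1338 kb from the gene. Inside genes the lost were led by Dpyd and Lama2, named above, and Bbs9 (24.8 in 2iL, 7.05 at 48h), a ciliary gene. Rbfox1 (24.7 and 29.4), Ryr2 (13.2 and 29.0), a calcium release channel, and Spidr (12.5 and 28.8) held the strongest gained regions inside genes.

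The gap was present among regions of like fold. In the strongest quartile of the 2iL list by fold (12.1 and above), 42.7% (40.8 to 44.7) of 2606 distant regions were lost by 96h, against 19.3% (18.8 to 19.9) of 19959 nearer regions. In the weakest quartile the shares were 75.4% and 62.8%. For the 96h list the strongest quartile (13.5 and above) had 33.5% (31.4 to 35.6) gained among distant and 9.67% (9.24 to 10.1) among nearer regions, and the weakest 75.1% and 55.5%. Regions at 10 to 100 kb lay between, with 31.9% lost and 18.4% gained in the strongest quartile. Ranked by the authors' −log10 p in place of the fold, the strongest quartile had 37.9% of distant regions lost and 23.4% gained, against 14.1% and 4.59% of nearer ones. In the weakest quartile by −log10 p the lost share between 2iL and 96h was 73.4% in distant and 70.6% in nearer regions, and between 48h and 96h the order turned, with 63.2% (61.5 to 64.9) of distant and 66.6% (65.9 to 67.2) of nearer regions lost. In the strongest quartile of the 2iL list, intergenic distant regions were lost in 45.3% (42.9 to 47.7) and those inside genes in 37.8% (34.7 to 41.1) of cases. With regions over a RefSeq promoter window left out of both, 59.8% of distant regions were lost and 57.2% gained, against 49.9% and 38.4% of nearer ones.

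**Figure D2:**
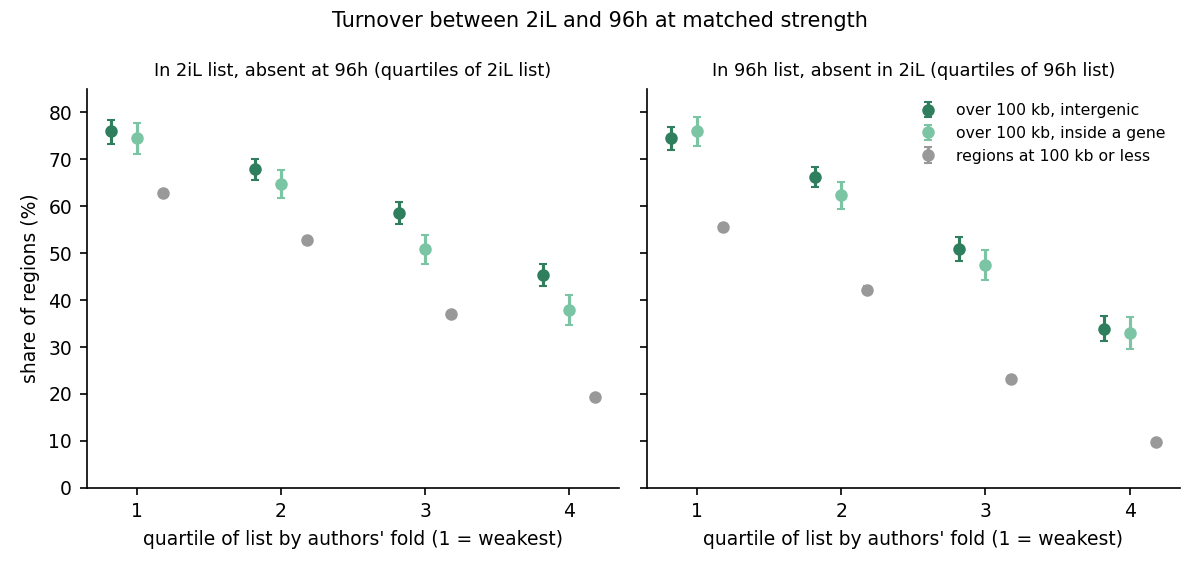
Points give the percent of regions of the 2iL list absent at 96h (left) and of the 96h list absent in 2iL (right), within quartiles of each list by the authors' fold, with exact 95% binomial intervals. In every quartile both classes of distant region lie above the grey points for regions at 100 kb or less, for example at 45.3% and 37.8% against 19.3% in the strongest quartile of the 2iL list.

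By median fold distant regions stood near the others in each list, at 8.68, 8.35 and 8.49 in 2iL, at 48h and at 96h, against 8.30, 8.18 and 8.93 for nearer regions. They were narrower, with median widths of 614, 565 and 537 bp against 693, 677 and 668 bp. A single summit was seen in 50.1%, 53.0% and 51.1% of distant intervals, against 38.2%, 37.3% and 35.3% of nearer ones. Median −log10 p was 90.8, 87.2 and 81.8, against 118, 127 and 133. Distant regions listed at 1 time alone were weak beside those listed throughout. Their median fold was 7.498 for 2iL alone, 6.06 for 48h alone and 6.74 for 96h alone. Nearer regions of the same courses had lower medians, of 6.501, 5.37 and 5.91. The 3704 listed throughout had medians of 10.5, 11.6 and 11.1, close to the 10.2, 10.8 and 11.1 of nearer regions listed throughout, but a median width of 634, 668 and 643 bp against 796, 816 and 787 bp. Their strongest summits in 96h and 2iL lay a median of 11 bp apart, and 50 bp or less apart in 85.9%. At 96h 15.3% of them were over 1.5 times as wide as in 2iL and 11.2% under 0.667 times as wide.

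Among intergenic distant regions listed throughout, those with the highest fold at their weakest time lay between 9530057J20Rik and Gm15319 (chr8:20122063-20122846; 33.5, 30.04 and 35.6), D16Ertd472e and Chodl (29.3, 30.1 and 28.9) and Gm38538 and Gm40862 (28.0, 31.2 and 28.0). The others of the 5 lay between Aldh1a3 and Asb7 (29.98, 32.5 and 27.3), barely past the 100 kb limit, and between Prkd1 and G2e3 (27.2, 26.7 and 27.0). Inside genes they were in Adam22 (28.1, 28.3 and 30.7), a synaptic receptor gene, Ssh2 (26.6, 25.7 and 27.3), a cofilin phosphatase gene, and Sox5 (24.7, 27.5 and 25.5), a transcription factor gene. The widest distant region spanned 3029 bp inside Zfp521, a zinc finger gene of neural commitment, and was listed in 2iL alone at a fold of 7.24. The next widest, 2844 bp between Bcor and Atp6ap2 on chromosome X, was listed throughout at 5.08, 5.28 and 6.08. Regions of 2559 bp between Ythdf3 and Cypt12 and of 2549 bp in Dscam, an adhesion molecule gene, were also listed throughout, and 1 of 2539 bp between Saraf and Dusp4 was missing in 2iL.

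Many distant regions had another close by, though their spacing was not compared with that of nearer regions. Another distant region lay within 10 kb of 57.0% of them, of 65.2% of those inside genes and 52.3% of intergenic ones, and the median gap was 14.0 kb. Neighbours within 10 kb had the same combination of lists in 25.04% of 6578 pairs, farther neighbours in 21.3%, and any 2 distant regions would share it in 17.6%. Runs of 5 or more with gaps of at most 10 kb numbered 362, 176 between genes and 186 inside them, and held 2522 distant regions. The longest run had 25 in 101 kb inside Msi2, which encodes an RNA-binding protein of stem cells, with 21, 18 and 12 listed in 2iL, at 48h and at 96h. A run of 24 inside Nav2, a neuron navigator gene, had 14, 20 and 16. Between Sdk2 and Rpl38 a run of 18 had 12, 13 and 16. Beside Pou3f1 a run of 17 had 6, 13 and 6. The orders of the 3 counts thus differed from run to run.

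Larger deserts were less often empty and less dense. Of 1519 stretches over 200 kb between neighbouring genes, 305 (20.1%) held no distant region. They were 32.4% of 880 stretches of 200 to 500 kb, 4.85% of 371 stretches of 500 to 1000 kb, 1.04% of 192 stretches of 1000 to 2000 kb and 0 of 76 above 2000 kb. The 880 shortest stretches held 96.9 Mb of distant sequence in all and the 76 longest 204.6 Mb. A short stretch thus has little room for a distant region, and the empty shares were not compared at equal room. Per Mb of distant sequence the 4 classes held 30.2, 21.0, 12.4 and 7.76 regions. The 5 largest empty stretches were all on chromosome X, the longest from Gm7429 to Cpxcr1 (1468 kb). The densest deserts over 1000 kb ran from Plekhb2 to Hs6st1 (54.6 per Mb), Sox2 to Atp11b (52.1), Sall3 to Galr1 (47.3), Mki67 to Mgmt (41.9) and Dok5 to Cbln4 (40.8).

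Distant regions fell in 1224 intergenic stretches and 770 host genes, with a median of 5 in each. The 96h list held more than the 2iL list in 766 of these 1994, fewer in 867 and the same number in 361. Of the 225 with 20 or more, 55 had most at 48h, 51 had fewer at each later time, 38 had more at each later time and 44 had fewest at 48h.

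The desert with the most distant regions, 67, ran from Mn1, a transcriptional coregulator gene, to Cryba4, a lens crystallin gene (chr5:111457030-112246492), and listed 38 in 2iL, 53 at 48h and 41 at 96h. It kept 21 throughout, led by chr5:111893720-111894598 at 12.2, 20.1 and 18.9. The desert from Bcl11a, a zinc finger repressor gene, to Fancl held 64 (43, 36 and 30), and that from Enc1 to Arhgef28 held 58 (36, 35 and 21). From Sall3, a spalt-like factor gene, to Galr1 there were 57 (44, 28 and 25). From Plekhb2 to Hs6st1, a heparan sulfate modifying enzyme gene, there were 54 (42, 30 and 21). The deserts from Cd83 to Jarid2, a Polycomb cofactor gene (49, with 30, 21 and 24), and from Nmbr to Cited2, a coactivator gene (48, with 27, 28 and 28), had counts closer together. The deserts from Cdh26 to 4930591A17Rik (29, 24 and 29) and from 4931429L15Rik to Gm4791 (36, 20 and 20) also held 48, as did that from Rps24 to Zmiz1, so that 4 deserts were level behind the 7 with more.

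Host genes with the most were Camta1, a calmodulin-binding transcription activator gene (61, with 32, 43 and 38), Nav2 (55, with 31, 38 and 35), Pde4d, a cAMP phosphodiesterase gene (54, with 37, 33 and 23), and Tenm4, a teneurin gene (54, with 39, 30 and 27). Ptprg, a receptor phosphatase gene, had 46, with 35, 18 and 18, of which 24 were in the 2iL list alone. Slit3, a guidance ligand gene (19, 23 and 30), Rbfox1 (21, 24 and 28) and Auts2, a neurodevelopmental gene (18, 23 and 29), had more at each later time. Etl4 (40, 33 and 27 of 51) had fewer at each later time, and Cdh13, the T-cadherin gene (25, 27 and 28 of 48), differed by at most 3 between lists. Ordered by number per Mb instead, none of these 20 deserts and genes was among the leaders compared, which held 173 to 350 per Mb. The densest of the 20, Enc1 to Arhgef28, held 130 per Mb.

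The largest net gains between 2iL and 96h were in Anks1b (13, 24 and 30 of 35), from Id2 to Rnf144a (8, 22 and 24 of 35), from Tafa5 to Zdhhc25 (7, 24 and 23 of 33), from Zeb2 to Acvr2a (15, 23 and 30 of 42), from Rps24 to Zmiz1 (20, 24 and 34 of 48) and in Nrxn3 (13, 24 and 26 of 34). Id2 encodes an inhibitor of helix-loop-helix factors, Zeb2 a zinc finger factor of neural and mesenchymal transitions and Nrxn3 a presynaptic neurexin. These 6 were chosen for that difference, so it is a description. In Anks1b 1 region alone was listed in 2iL and at no other time (fold 17.8), whereas 11 were listed throughout, the leader chr10:90373393-90374164 at 12.5, 21.0 and 22.4. In Nrxn3 the leader, chr12:89106130-89106937, stood at 14.9, 24.5 and 33.3. From Zeb2 to Acvr2a, chr2:46506781-46507539, 1389.7 kb from a gene end, was missing in 2iL and stood at 22.2 and 24.8 later.

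The largest net losses were from Plekhb2 to Hs6st1, from Sall3 to Galr1, in Ptprg, in Tenm3 (34, 15 and 17 of 41), from 1810013L24Rik to Grin2a, an NMDA receptor gene (30, 20 and 13 of 39), and from Adam6a to Zfp386 (23, 13 and 6 of 23). The last holds immunoglobulin heavy-chain segments, which the annotation does not count as protein-coding genes, so it is a gene desert by the rule alone. From Plekhb2 to Hs6st1 the leader of the 18 listed in 2iL alone had a fold of 15.8, while chr1:35869487-35870163 was listed throughout at 13.5, 24.2 and 23.2. In Ptprg the leader of those listed in 2iL alone reached 16.2.

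**Figure D3:**
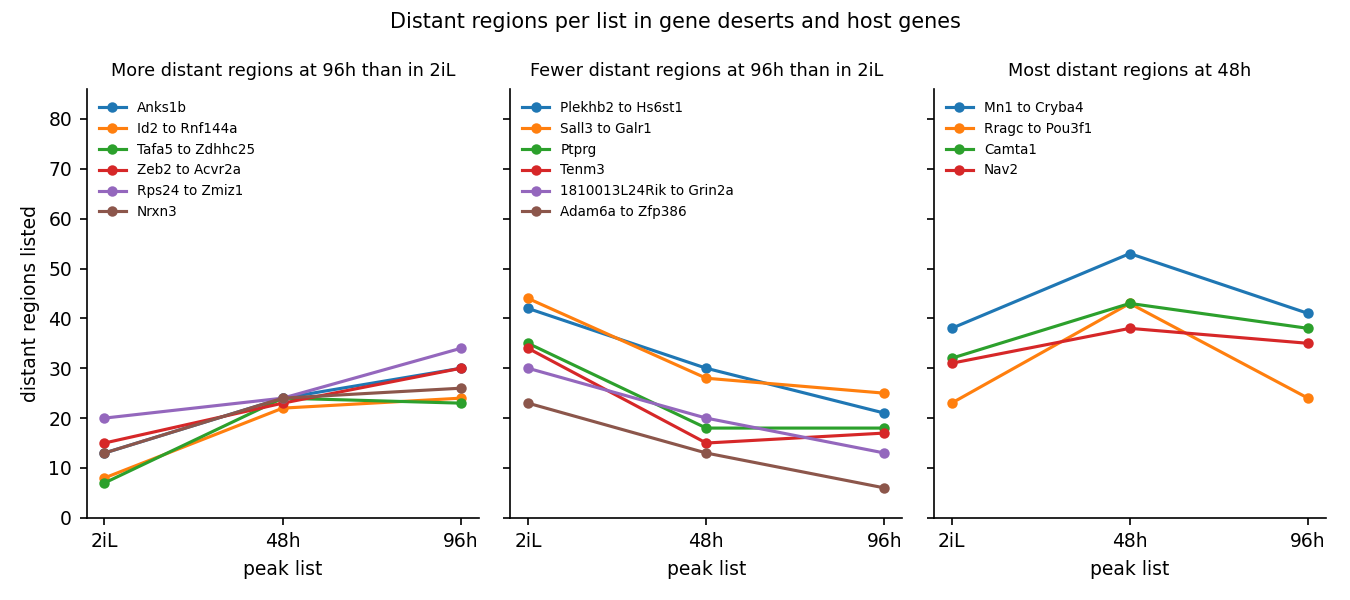
Lines give the number of distant regions in the 2iL, 48h and 96h lists for single deserts and host genes. The left and middle panels hold the 6 chosen for the largest net gain and the 6 for the largest net loss between 2iL and 96h, and the right panel holds those of the 20 most populated that had most at 48h, such as the desert beside Pou3f1 with 23, 43 and 24.

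Pou3f1 (Oct6), a POU factor of formative and primed pluripotency, borders a desert of 721 kb from Rragc to Pou3f1 (chr4:123936997-124657646). Its 55 distant regions comprised 23 listed in 2iL, 43 at 48h and 24 at 96h. The 48h list alone held 18, or 32.7%, beside a median of 10.9% over the 225 stretches with 20 or more, and no other of the 225 had so high a share. Next came 4931417E11Rik to Ctnna2 (28.6%), Pcdh7 to G6pd2 (28.0%), Prok2 to Rybp (27.8%) and Magi2 (27.6%). The strongest of the 18 lay at chr4:124467011-124467704, 190.3 kb from Pou3f1, with a fold of 13.5, and at chr4:124546209-124546844, with 12.2. A further 10 were listed throughout. Of these chr4:124316440-124317800 had folds of 11.4, 20.9 and 25.9 and led the desert at 48h and at 96h.

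To group distant regions by neighbouring genes, each intergenic one was given to both genes that flank its stretch and each inside one to its host. The gene lists were chosen with earlier results of these data known, so their counts and shares are descriptions. Formative and primed pluripotency genes had 176 distant regions, 82 in 2iL, 125 at 48h and 77 at 96h. Of those at 48h, 60.0% had been gained since 2iL (45.2% of all distant regions), and 55.2% were lost by 96h (38.2% of all). Without Pou3f1 the counts were 59, 82 and 53. Most distant regions at 48h were seen in 6 of the 8 genes of the list that had any, against 18.2% of 2556 genes with distant regions. They were Pou3f1, Foxp1 (17, 26 and 20), a forkhead gene, Lef1 (4, 11 and 6), a Wnt effector gene, Foxd3 (4, 7 and 2), Sox3 (2, 7 and 2) and Otx2 (2, 5 and 2), which all encode transcription factors. The last 3 were named after their values were seen. Cdh2 had 27, 24 and 20.

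Naive pluripotency genes had 114 distant regions, 69 in 2iL, 67 at 48h and 61 at 96h. Lost between 2iL and 96h were 65.2% (52.8 to 76.3), beside 59.0% of all distant regions, and gained were 60.7% (47.3 to 72.9), beside 56.4%. Klf5, a Krüppel-like factor of the naive network, had 11, 7 and 3, and its leaders in 2iL included chr14:99448760-99449631 at 22.7, listed in 2iL alone. At 23.6, 15.5 and 8.34, chr14:99475117-99475609 was listed throughout. Klf4 had 11, 7 and 9, Nr5a2, a nuclear receptor gene, 19, 19 and 15, and Tbx3, a T-box gene, 21, 20 and 19. Of the 20 genes of the list 8 had any distant region, and 3 of these had more at 96h than in 2iL and 4 had fewer.

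Mesoderm and primitive streak genes had 53, with 21 in 2iL, 32 at 48h and 41 at 96h. They lost 38.1% (18.1 to 61.6) and gained 68.3% (51.9 to 81.9) between 2iL and 96h, beside 59.0% and 56.4% of all distant regions, and both intervals are wide and include those shares. Msx2, a homeobox gene of the BMP response, had 6, 8 and 12, Foxf1, a forkhead gene of lateral mesoderm, 4, 5 and 9, and Tbx20, a heart T-box gene, 1, 4 and 5. At Msx2 chr13:53948058-53948436 stood at 7.70, 12.0 and 24.1. Of the 24 genes of the list 10 had any distant region. By gene the list was evenly split, as 4 had more at 96h than in 2iL and 4 had fewer, each of these with at most 3 in any list, such as Eomes (3, 3 and 2) and Evx1 (3, 1 and 2), named after their values were seen.

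Extraembryonic endoderm genes went the other way, with 56 distant regions of which 43 were in 2iL, 19 at 48h and 17 at 96h. Lost between 2iL and 96h were 79.1% (64.0 to 89.96), beside 59.0% of all distant regions. Foxq1, a forkhead gene, had 10, 1 and 3, led by chr13:31321218-31322357 at 15.8 in 2iL alone. Pdgfra, a receptor gene of primitive endoderm, had 9, 2 and 0, with leaders of 11.8 and 11.2 in 2iL. Within 1 kb of their ends 8, 9 and 10 of the 13 genes of the list had a region in the 2iL, 48h and 96h lists. Fewer at 96h than in 2iL were found for 5 of the 6 genes with any, and more for 1. Dab2, an endocytic adaptor gene, had 12, 10 and 6, and Gata6, an endoderm GATA gene, 8, 4 and 7. Definitive endoderm genes, which share Gata6 and Sox17 with that list, had 37, 32 and 35, with Cxcr4 at 10, 7 and 10, Prox1 at 9, 7 and 5 and Foxa2 at 5, 8 and 8. Trophoblast genes stood at 30, 29 and 31, among them Gata3 (25 in all) and Tfap2c (14). Fibroblast genes had 17, 11 and 11, with Fn1 at 7, 4 and 3.

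Neural ectoderm genes had 611 distant regions, 337 in 2iL, 320 at 48h and 354 at 96h. The highest of the 3 counts was at 96h for 11 of the 27 genes with any, against 23.7% of all 2556 genes. They lost 55.5% and gained 57.6% between 2iL and 96h, near the 59.0% and 56.4% of all distant regions. Zeb2 (15, 23 and 30) stood against Bcl11a (43, 36 and 30) and Sox5 (33, 21 and 21). Tcf4, an E-protein gene, had 26, 23 and 21. Signalling and growth regulators with wide flanks had 764 (428, 408 and 435), including Myc, with 31, 29 and 21, and Epha4, with 24, 19 and 24. Cell adhesion and synapse genes held 2360 (1332, 1290 and 1295), led by Tenm4 (62, 48 and 43), Auts2 (36, 46 and 54), Rbfox1 (42, 45 and 50) and Tenm2 (29, 43 and 39) with host and flanks counted together. None of 20 housekeeping genes had a distant region in its flanks.

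**Figure D4:**
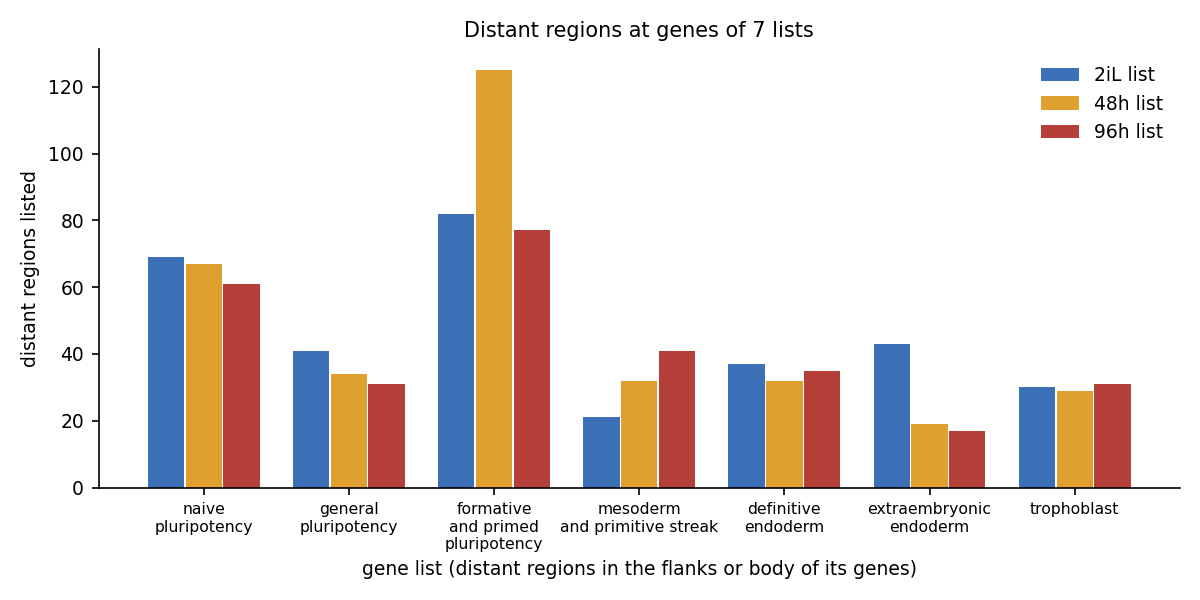
Bars give the number of distant regions in the flanks or body of the genes of 7 lists, in the 2iL, 48h and 96h lists. Formative and primed pluripotency genes stand at 82, 125 and 77, mesoderm and primitive streak genes at 21, 32 and 41, and extraembryonic endoderm genes at 43, 19 and 17.

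Sox2, a core factor of pluripotency and of neural progenitors, is flanked by the desert of 1102 kb from Sox2 to Atp11b and by 569 kb from Dnajc19 to Sox2. A cluster of enhancers about 100 kb beyond the gene on the Atp11b side is known in mouse embryonic stem cells as the Sox2 control region. The Atp11b side held 47 distant regions (34, 26 and 23) and the Dnajc19 side 11 (5, 5 and 7). At 100 to 170 kb from Sox2 on the Atp11b side 12, 11 and 7 were listed, and beyond 170 kb 22, 15 and 16. A cluster of 4 regions at 104 to 109 kb, in chr3:34756573-34761690, included 3 that were listed throughout. The outermost, chr3:34761045-34761690, had folds of 7.65, 6.49 and 6.77 and −log10 p values of 579, 267 and 100. Next to it, chr3:34759923-34760621 had 2.79, 3.04 and 5.25. The innermost, chr3:34756573-34757065, had 3.98 and 2.59 and was missing at 96h.

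Farther out, elements with opposite courses lay between each other. At 143 kb chr3:34795279-34796314 had high folds throughout, of 20.05, 21.6 and 24.5, with −log10 p values of 496, 677 and 676. In 2iL its −log10 p was below the 579 of chr3:34761045-34761690, whose fold was 7.65. Fold and −log10 p thus ranked these regions in opposite order in 2iL. At 122 kb chr3:34773658-34774502 stood at 5.74, 9.27 and 19.2. At 233 kb chr3:34884981-34885484 had 18.8 in 2iL, was missing at 48h and had 4.80 at 96h. The region at chr3:34949645-34950519, 298 kb from Sox2, which holds the Gm35255 promoter printed above, was missing in 2iL and stood at 21.4 and 18.4 later. Another at chr3:35084111-35084973, 432 kb from Sox2, was missing in 2iL and had 17.6 and 22.9. On the Dnajc19 side chr3:34474120-34474579 was missing in 2iL and had 17.6 and 22.1.

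**Figure D5:**
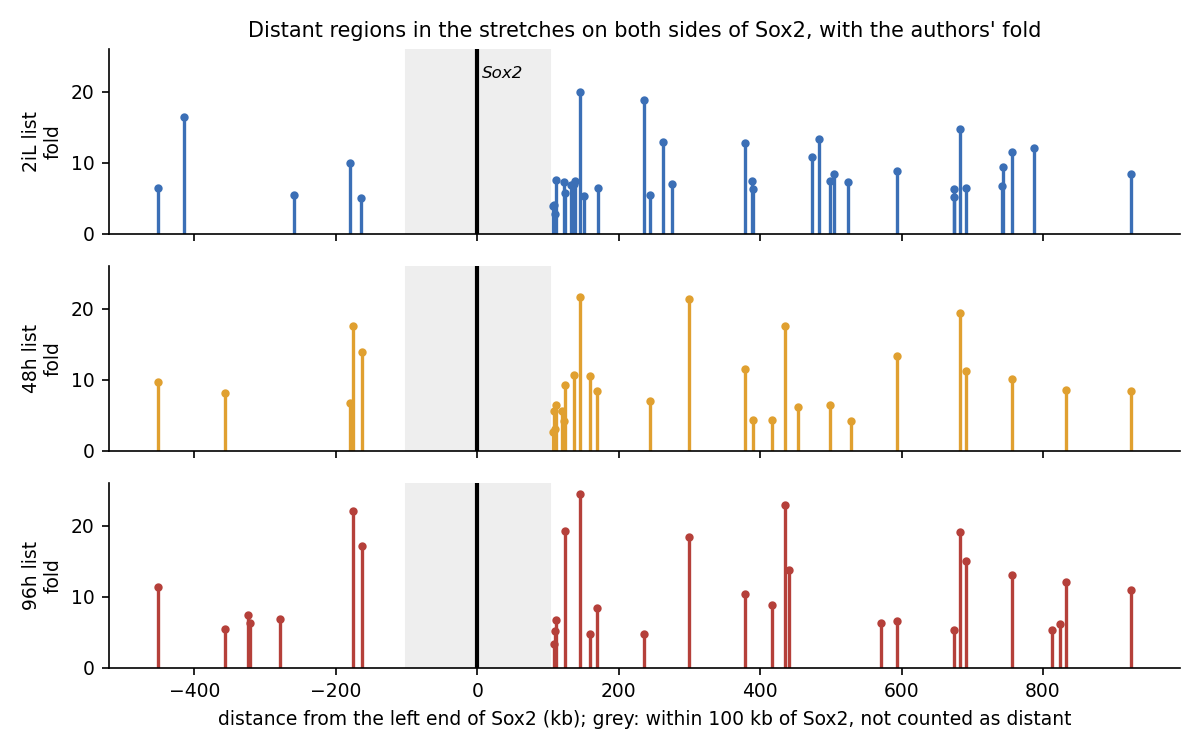
Each stem is a distant region at its distance in kb from the left end of Sox2, with its height the authors' fold in the 2iL, 48h or 96h list. The grey band lies within 100 kb of Sox2, where regions do not count as distant, and the tall stem of 21.4 at 48h and 18.4 at 96h at 300.1 kb has no counterpart in 2iL.

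Far from protein-coding genes did not mean far from every gene. Of the 17575, 3965 (22.6%, 21.9 to 23.2) lay over 100 kb from the end of any annotated gene, non-coding genes and pseudogenes included, and 4100 (23.3%) lay within 10 kb of such an end. Long non-coding RNA genes overlapped 20.3% of the intergenic distant regions, beside 21.6% of the intergenic regions at 10 to 100 kb. Intergenic distant regions within 1 kb of the end of a long non-coding RNA gene were listed throughout in 29.9% (26.5 to 33.5) of 688 cases, those deeper inside such a gene in 20.9% (19.0 to 22.9) of 1749, and those outside in 19.1% (18.2 to 19.9) of 8757. Antigen receptor segments had 98 distant regions (0.558%) within 100 kb, in the stretches from Adam6a to Zfp386 and Gm36448 to Dad1 (35) among others.

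Promoter windows set a small class apart. A RefSeq promoter window of 300 bases overlapped 373 distant regions, 282 with a window of a long non-coding RNA gene and 93 with one of a protein-coding gene. Of the 373, 48.3% (43.1 to 53.5) were listed throughout, against 20.5% of the other distant regions and 85.02% of the nearer regions with such a window. Between 2iL and 96h 30.3% were lost and 30.04% gained, against 59.8% and 57.2% of the distant regions with none. Protein-coding windows inside distant regions belonged to genes such as Cdh18 (21.2, 26.8 and 28.6) and Esrrg (19.2, 25.4 and 27.6). The 259 windows that lay wholly inside a distant region had a median GC content of 53.7% and a ratio of observed to expected CpG of 0.346, beside 52.7% and 0.384 for all 32851 windows. Among windows of long non-coding RNA genes alone the CpG order was reversed. The 179 inside distant regions had medians of 53.0% and 0.315, beside 48.3% and 0.245 for all 11588 such windows.

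Matches to 18 motifs were counted on both strands of those 259 windows, and for 5 motifs the interval lay above the share of all windows. The 259 all lie in listed open regions, whereas all windows were taken whether open or not. Windows inside nearer open regions were not compared, and base content was not matched. The octamer of POU factors, ATGCAAAT, was found in 3.86% (1.87 to 6.99), beside 1.74% of all windows. The Tfcp2l1 motif, CCAG on both sides of any 6 bases, was found in 6.95% (4.17 to 10.8), beside 3.44%. The E-box CAGCTG was found in 25.5% (20.3 to 31.2), beside 16.3%, the Zic motif CAGCAGG in 16.2% (11.9 to 21.3), beside 10.5%, and the Otx motif GGGATTA in 4.63% (2.42 to 7.95), beside 2.25%. For the other 13 the interval included the share of all windows. They were the Tfap2 motif GCCNNNGGC (17.8% beside 16.6%), the homeobox motif TAATTA (5.02% beside 5.29%), Klf (GGGNGTGG), Sox (AACAATGG), Esrrb/Nr5a2 (CAAGGTCA), Stat (TTCCNGGAA), Prdm14 (GGTCTCTAA), Tcf/Lef (ATCAAAG), Grhl (AACCGGTT), AP-1 (TGANTCA), Tead (ACATTCC), the CTCF core and the Oct-Sox composite, which contains most of the octamer. Set against windows of their own kind, the 179 long non-coding RNA windows inside distant regions held the octamer in 3.91% (1.59 to 7.89), beside 1.87% of all such windows, and the Otx motif in 3.91% beside 2.64%, both within the interval. For Tfcp2l1, Zic, E-box and Tfap2 the interval lay above, at 7.82% beside 3.36%, 17.3% beside 10.5%, 26.8% beside 17.7% and 17.3% beside 10.5%. In the sequences printed above the Gm35255 window holds 1 octamer, 1 Tfcp2l1 match and 1 E-box, the Gm32703 window 1 Tfap2 match and 1 E-box, the Gm20756 window 1 E-box and the C030018K13Rik window 2 homeobox matches. A match describes these letters and shows no binding.

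Of the 1005 RefSeq microRNA hairpins 6 overlapped distant regions. A microRNA gene overlapped 0.0341% of distant regions, against 0.189% of nearer ones and 0.0737% of intergenic ones at 10 to 100 kb. Mir137, whose product acts in neural differentiation, lay between Snx7 and Dpyd under a region missing in 2iL, with 5.98 at 48h and 4.43 at 96h. Mir344 and Mir344-2, which give the same mature sequence, lay between Gm51483 and Ndn under separate regions that were also missing in 2iL, with 9.09 and 7.07, and with 12.7 and 10.3. The region that overlapped only the 3′ end of the Mir100 hairpin, between Ubash3b and Gm40514, was listed at 96h alone with 5.47. So was the region over Mir3092 inside Fndc3b, with 5.63. Mir6391, inside Abcc4, lay under a region listed throughout, with 11.7, 13.7 and 20.2. Of the 6 regions 5 were thus absent from the 2iL list, against 42.4% of all distant regions, a share that rests on very few regions.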

How the data were processed

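ATAC-seq of 6 samples (2 per group) was analysed from the deposited peak lists, 1 per group. Both samples of a group share a list, per the labels, which do not tell whether the 2 were grown separately. Build mm10 and the tools Picard, SAMtools, BWA and bcl2fastq 2.20.0.422 are listed in the submitters' processing notes. Not given in the sources used here are the peak caller, its settings and any transposase shift, which could change which weak regions are listed. Each line of a deposited list gives the authors' fold enrichment (a linear ratio), a p-value as −log10 and a score. Read depth is not in the files, so the number of reads behind a region is unknown.

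Intervals overlapping by 1 bp were merged (Python 3.11.15, pandas 2.3.3, numpy 2.4.6, scipy 1.17.1, matplotlib 3.10.9). Regions took the values of the summit with the highest −log10 p. Distances ran from the midpoint to the nearest end of 21779 RefSeq protein-coding genes. Left out were 108 genes placed below 3 Mb, where their positions are local to unplaced scaffolds. The table has no exons, so introns were not told from exons. No genome was used, and sequences of most regions were not analysed here. Shares have exact (Clopper-Pearson) 95% intervals. The merging and annotation were tested on simulated intervals.

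Members and gene lists were chosen with earlier results of these data known. Named stretches, hosts and regions followed fixed rules: the most distant regions, the largest net difference, the highest fold among lost, gained or persistent, the farthest, the widest, and up to 4 genes a list, with Sox2. A few items these rules select are not reported here. Alternatives covered the distance, the genes counted, the list threshold, list length and overlap.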

Additional observations from a re-analysis of the deposited data

How the results depend on the processing

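Taking 50 kb as the limit gave 32778 regions, 23.1% of them listed throughout. Lost and gained shares were then 44.8% and 41.8% between 2iL and 48h and 57.5% and 52.5% between 2iL and 96h, and 34.0% were gained between 48h and 96h. With 200 kb there were 7926 regions and 19.4%, with 48.8% and 47.4%, then 60.3% and 59.1%, and 38.9%. Counting every annotated gene left 3965 regions and 19.5%, with 50.8% lost and 47.6% gained by 48h, 40.3% gained between 48h and 96h and 59.1% gained between 2iL and 96h. The stronger 50% of each list by −log10 p gave 6793 distant regions, 18.8% of them throughout (nearer regions 42.8%), 51.8% lost by 48h, 41.2% lost between 48h and 96h, and 65.4% lost and 57.8% gained between 2iL and 96h. At equal list lengths (78055 intervals), 46.1% were lost by 48h, 32.1% lost and 41.7% gained between 48h and 96h, and 55.4% lost and 61.1% gained between 2iL and 96h. Where a list had to cover at least 50% of a region's bases, 18.1% were listed throughout, with 50.8% and 49.1%, 40.5% and 39.0%, and 63.0% and 60.8% for the 3 comparisons. Neighbours within 20 kb were found for 71.5%. Among the leaders compared by number per Mb were 0 of the 20 deserts and hosts named. Quartiles by −log10 p, chosen after seeing the data, gave 37.9% lost and 23.4% gained in the strongest quartile. Measuring from the nearest edge, or leaving out regions over promoters or near antigen receptor segments, moved no share past its interval. Averaging summits lowered the median fold of distant regions from 8.68 to 7.301 in 2iL. At 48h it fell from 8.35 to 7.061, and at 96h from 8.49 to 7.004. With either other limit, the stronger 50% or equal lengths, distant regions were lost and gained more often than nearer ones in all 3 comparisons. No paired analysis was possible because each group has 1 list, and leaving out a replicate could not be run for the same reason. Counting error limits lists with few distant regions, such as the 53 at mesoderm genes.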
